A study of Mus musculus with 16 samples.

Results

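Small leucine-rich proteoglycans (SLRPs) were followed in the left ventricle of mice with and without pyruvate kinase M2, the glycolytic enzyme PKM2, before and after myocardial infarction (MI). The 9 genes were chosen as members of the family. They are biglycan (Bgn), decorin (Dcn), asporin (Aspn), lumican (Lum), fibromodulin (Fmod), prolargin (Prelp), osteomodulin (Omd), osteoglycin (Ogn) and podocan (Podn), and all 9 were present among the 55492 genes counted. The 16 RNA-seq libraries fell into 6 groups of male C57BL/6 mice aged 8 to 12 weeks. For each of 2 genotypes there were 2 unoperated hearts (baseline), 3 hearts after a sham operation and 3 hearts after permanent ligation of the left anterior descending artery, the operated hearts taken at 3 days.

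The controls, PKM2fl/fl, carried floxed Pkm alleles and no Cre. The knockouts, PKM2-/-, came from a germline deletion of exon 10 by Cre under the CMV promoter, after which the Cre allele was bred out. The deletion was therefore present in every cell type, and a change in fibroblasts could not be told apart from one that followed changes in other cells. Since exon 10 is one exon of a gene that also makes PKM1, the count over the whole Pkm gene does not check the label. Pkm normalized counts were 9602 and 9108 in the PKM2fl/fl baseline libraries, 7779, 9444 and 8764 in sham, and 12076, 9576 and 10560.4 in MI. In PKM2-/- they were 11981 and 12984 at baseline, 11710.1, 14242 and 13199 in sham, and 16113, 11549 and 10120.2 in MI.

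SLRPs are secreted matrix proteins with a core of leucine-rich repeats, most of which carry chondroitin, dermatan or keratan sulfate chains. They bind collagen fibrils and set how fibrils are spaced and thickened, and several of them also bind growth factors such as TGF-β or act on Toll-like receptors when released from the matrix. In the heart they are made mainly by fibroblasts, and the matrix is rebuilt in the first days after an infarct while inflammatory cells enter and cardiomyocytes are lost. In whole ventricle, fewer cells of a type and less RNA per cell cannot be told apart.

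The genes lie in a few small clusters. By RefSeq on GRCm38.p6, the build also called mm10 that the reads were aligned to, Dcn (chr10:97479500-97518163) and Lum (chr10:97565501-97572703) are neighbours on the plus strand with 47337 bases between them. Aspn (chr13:49544443-49567565), Omd (chr13:49582462-49592612) and Ogn (chr13:49608015-49624501) follow one another on the plus strand, 14896 and 15402 bases apart. Prelp (chr1:133910304-133930102, minus strand) and Fmod (chr1:134037254-134048280, plus strand) are 107151 bases apart, Bgn (chrX:73483601-73495936) is on the plus strand and Podn (chr4:108014793-108031954) on the minus strand.

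Promoter sequences, from 250 bases before to 50 after a start site, were found in RefSeq for 7 of the 9 genes. Those of Bgn and Aspn are shown because these were the 2 genes that rose most after MI, and that of Ogn because it is on the same strand and in the same cluster as Aspn and did not rise. Capitals mark each match to 5 motifs searched on both strands, namely AP-1 (TGANTCA), TEAD (GGAATG), the CArG box, the TATA box (TATAAA) and the GC box (GGGCGG), and matches that overlap are joined.
Bgn, chrX:73483351-73483650, plus strand: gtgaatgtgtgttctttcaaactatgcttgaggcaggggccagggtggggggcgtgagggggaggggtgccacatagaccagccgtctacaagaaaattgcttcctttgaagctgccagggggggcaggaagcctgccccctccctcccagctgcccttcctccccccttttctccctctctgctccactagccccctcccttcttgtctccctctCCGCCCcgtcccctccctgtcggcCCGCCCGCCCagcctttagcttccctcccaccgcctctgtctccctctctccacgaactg
Aspn, chr13:49544193-49544492, plus strand: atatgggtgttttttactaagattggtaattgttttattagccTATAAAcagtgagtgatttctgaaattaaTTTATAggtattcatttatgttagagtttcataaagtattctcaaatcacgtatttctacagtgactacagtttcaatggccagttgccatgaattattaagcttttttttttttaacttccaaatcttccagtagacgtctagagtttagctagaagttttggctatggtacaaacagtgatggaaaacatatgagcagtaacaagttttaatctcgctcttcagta
Ogn, chr13:49607765-49608064, plus strand: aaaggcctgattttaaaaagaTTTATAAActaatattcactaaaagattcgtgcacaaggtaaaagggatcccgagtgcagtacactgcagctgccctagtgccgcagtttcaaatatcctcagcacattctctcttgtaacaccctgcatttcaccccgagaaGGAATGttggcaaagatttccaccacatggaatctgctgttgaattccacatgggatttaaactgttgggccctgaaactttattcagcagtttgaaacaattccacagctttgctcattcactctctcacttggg

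The Bgn window was GC-rich, at 63.7% G and C against a median of 52.7% over 32851 promoters, and held 3 GC boxes, a motif present in 35.7% of promoters. The Aspn and Ogn windows were AT-rich, at 31% and 42.3% G and C. Each held 2 matches to the TATA box, which 13.6% of promoters have, and in both genes these lay more than 170 bases before the start site. The Ogn window also held 1 TEAD match, a motif in 14.7% of promoters, and none of the 3 windows held an AP-1 match (7.81% of promoters) or a CArG box (1.63%). A match is only a run of letters, and these windows do not show which factors bind.

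Depth was 20623769 to 71855101 reads on genes per library, and the 9 genes had from 18 to 23538 reads in a library. In 5 of the 16 libraries, PKM2fl/fl MI replicates 1 and 3, PKM2-/- sham replicate 3 and PKM2-/- MI replicates 2 and 3, over 10% of reads fell on the ribosomal RNA locus CT010467.1 (15% to 25.1%). The left ventricle label was checked against marker genes. Cardiomyocyte markers were the most abundant of the cell type lists in all 16 libraries, and the atrial genes Myl7, Sln and Myl4 summed to between 120 and 1487 normalized counts. Of the valve, tendon and cartilage markers, Tnmd was at 0 in 9 of 16 libraries. Thbs4, Comp, Sox9 and Scx were found in all 16, with means of 235, 175.5, 120.7 and 85.1 normalized counts. These genes therefore do not show that such tissue was absent. Values are normalized counts, that is reads divided by the size factor of the library, and tests are limma on log2(normalized count + 1) over 20576 genes with Benjamini-Hochberg adjusted p-values, called at 0.05.

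The counts of 5 of the 9 genes could share reads with neighbouring or overlapping genes, which limits what their values stand for. Podn, which encodes a class V SLRP found around smooth muscle, had 92.6% to 99.96% of the reads of Scp2 in every library, and never more. Scp2 encodes sterol carrier protein 2, a lipid carrier of peroxisomes, and begins 11875 bases beyond Podn on the same chromosome, so that the annotated spans do not overlap. No other gene came within 10% of the reads of Podn in all 16 libraries, and no gene did so for the other 8 SLRPs. The settings of the counting and the gene models are not given in the sources used here, so podocan RNA cannot be told apart from Scp2 RNA in these values.

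Prelp was overlapped by an antisense gene, Gm15851, which had 72.9% to 81.4% of its reads in every library. Aspn, Omd and Ogn lie within the span of Cenpp, a centromere protein gene on the opposite strand. The reads on these 3 genes and their neighbour Ecm2 summed to 85.9% to 91.8% of the reads on Cenpp. The library kit does not mark strand, so reads of these genes and of their antisense partners cannot be told apart. The reads that Cenpp had beyond these 4 genes came to 12.9% to 34.2% of the reads of Ogn and 27.3% to 105.6% of those of Aspn, and Omd was only 6.01% to 16.2% of what Cenpp had beyond Ecm2, Aspn and Ogn. In GENCODE M39, 1155 exon bases of Ogn and 267 of Aspn are shared with Cenpp and 350 of Prelp with Gm15851, while Bgn, Dcn, Lum, Fmod, Omd and Podn share none with another gene.

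**Figure D1:**
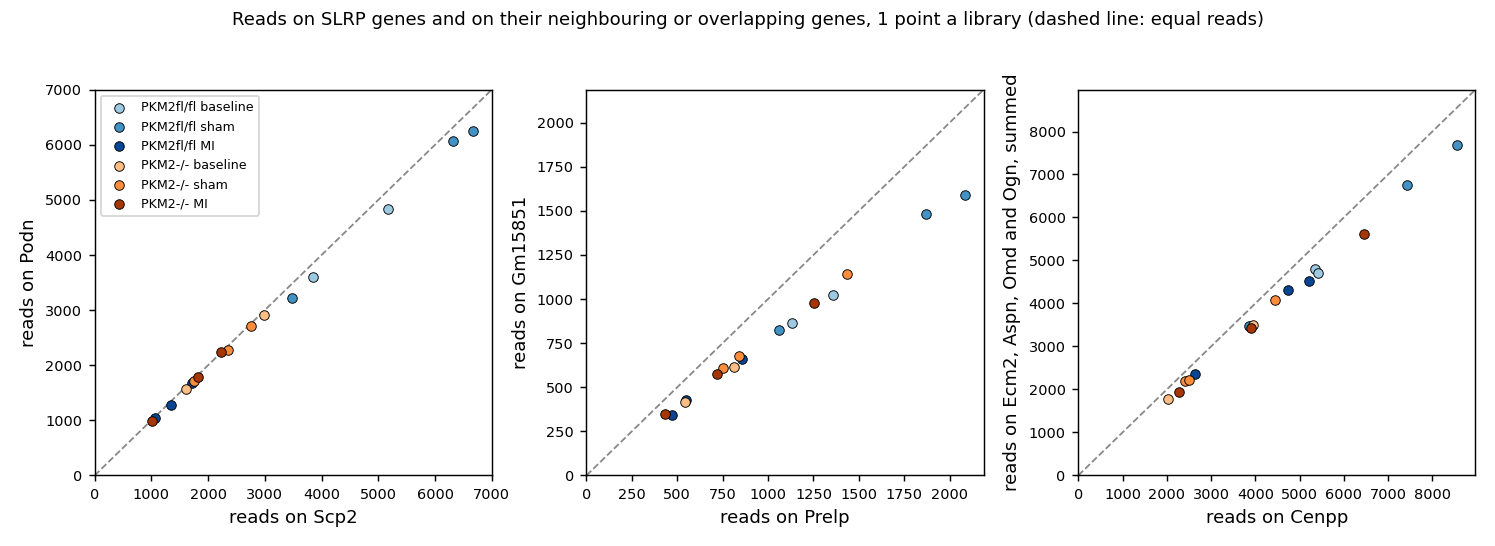
Reads on SLRP genes against reads on neighbouring or overlapping genes, 1 point a library, coloured by group, with a dashed line of equal reads. Podn lay on or just below the line against Scp2 in all 16 libraries, Gm15851 kept 72.9% to 81.4% of the reads of Prelp, and the 4 genes nested in Cenpp made up 85.9% to 91.8% of its reads.

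To ask how the family responded to MI in control hearts, PKM2fl/fl MI was compared with PKM2fl/fl sham. Bgn, Aspn and Lum rose and Podn, Prelp and Dcn fell, so that 6 of 9 genes passed the test, 3 in each direction. This share is near that of all genes, of which 50.1% passed (24.8% higher, 25.3% lower). Without Podn it was 5 of 8. At 2-fold or more, 3 of 9 passed (Bgn, Aspn and Podn), against 23.5% of all genes. The median log2 difference of the 9 genes was -0.21, beside -0.0025 for all genes tested.

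In PKM2-/- hearts the comparison of MI with sham gave 7 of 9 genes, with Bgn, Aspn and Lum again higher and Podn, Prelp, Ogn and Dcn lower, against 56.8% of all genes (28.7% higher, 28.1% lower). Without Podn it was 6 of 8. The median of the 9 genes was -0.28, beside 0.01 for all genes. At 2-fold or more the same 3 genes as in PKM2fl/fl passed, against 28.8% of all genes. MI and sham libraries did not overlap in 6 genes in PKM2fl/fl and 7 in PKM2-/-, beside 59.0% and 62.3% of all genes.

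**Figure D2:**
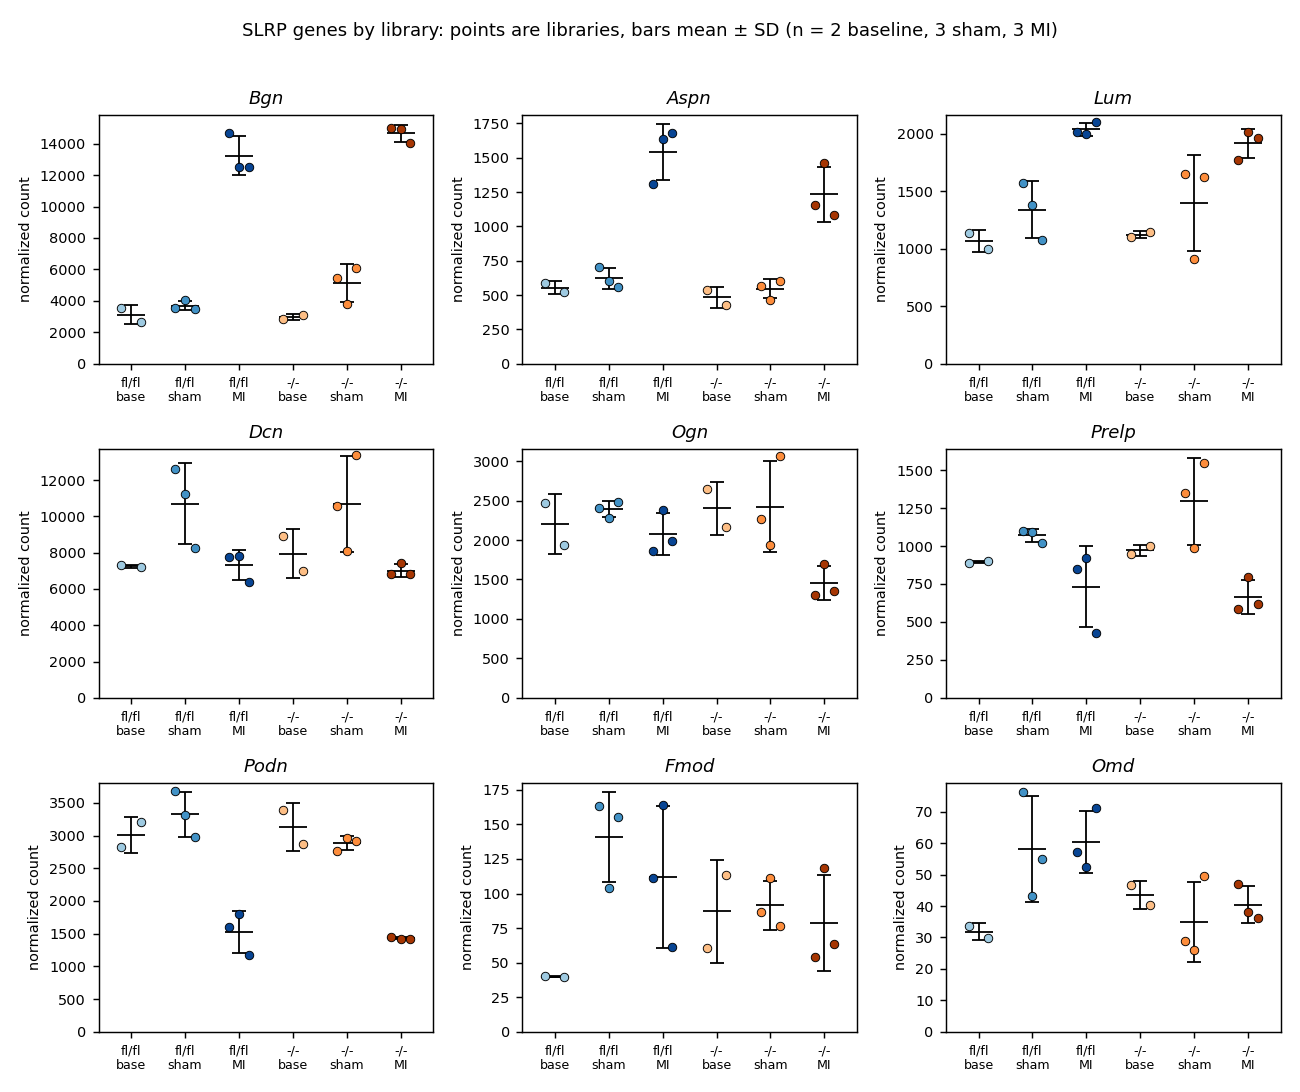
Normalized counts of the 9 SLRP genes in each library (points), with the group mean ± SD (bars, n = 2 at baseline, 3 in sham and 3 in MI). All MI libraries were above all sham and baseline libraries of the same genotype for Bgn, Aspn and Lum, and below them for Podn, whose reads nearly equal those of Scp2.

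Biglycan, a class I SLRP with chondroitin or dermatan sulfate chains that also acts on Toll-like receptors 2 and 4, changed most. Bgn was at 3543, 4062 and 3498 normalized counts in the PKM2fl/fl sham libraries and at 14646.5, 12506 and 12537 after MI. In PKM2-/- it was at 5484, 3796 and 6119.9 in sham and 14965, 14949 and 14047 after MI. Each MI library was far above every sham library of either genotype. The log2 difference was 1.84 ± 0.15 (SE) in PKM2fl/fl, a 3.57-fold rise (95% interval 2.84 to 4.49, limma adjusted p = 4.29e-07), and 1.54 ± 0.15 in PKM2-/-, a 2.91-fold rise (2.32 to 3.66, adjusted p = 1.26e-06).

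Asporin is the other class I gene that rose. It binds collagen and TGF-β and lacks the chain attachment sites of biglycan and decorin. Aspn was at 707, 600.5 and 559 in PKM2fl/fl sham and 1308, 1637 and 1677 after MI. The PKM2-/- libraries were at 567, 468 and 599.8 in sham and 1158, 1459 and 1083 after MI. The groups did not overlap in either genotype, with log2 differences of 1.30 ± 0.15 (adjusted p = 5.94e-06) and 1.17 ± 0.15 (adjusted p = 8.87e-06).

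Decorin, the class I SLRP that gives collagen fibrils an even width and binds TGF-β, moved the other way. Dcn was at 12625, 11231 and 8269.6 in PKM2fl/fl sham and 7738, 7840.0 and 6364 after MI. The PKM2-/- libraries were at 10601, 8071 and 13364 in sham and 6806, 7426 and 6818 after MI. In both genotypes the lowest sham library was close above the highest MI library. Dcn was 1.45-fold lower after MI in PKM2fl/fl (log2 -0.53 ± 0.18, adjusted p = 0.0218) and 1.49-fold lower in PKM2-/- (log2 -0.58 ± 0.18, adjusted p = 0.0126). The baseline libraries, at 7295 and 7198 in PKM2fl/fl and 8897 and 6989 in PKM2-/-, overlapped the MI libraries of their own genotype, and the contrast of MI with baseline was not tested.

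The fall of Dcn depended on single libraries. In PKM2fl/fl it no longer passed without sham replicate 1 (log2 -0.40, adjusted p = 0.107), without sham replicate 2 (-0.49, adjusted p = 0.0688) or without MI replicate 3 (-0.44, adjusted p = 0.0766). In PKM2-/- it no longer passed without sham replicate 3 (-0.40, adjusted p = 0.0746).

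Bgn rose and Dcn fell from sham to MI, so their ratio necessarily moved more between these groups than either gene. The pair was picked from these values. Mean Dcn was 7246 at baseline and 7314 after MI in PKM2fl/fl, and 7943 and 7017 in PKM2-/-. Against baseline, the ratio therefore mostly follows Bgn. Per kilobase of exon, the Bgn to Dcn ratio in PKM2fl/fl was 0.828 ± 0.154 at baseline (SD, n = 2), 0.685 ± 0.138 in sham (n = 3) and 3.51 ± 0.382 after MI (n = 3). In PKM2-/- it was 0.737 ± 0.174, 0.93 ± 0.0604 and 4.03 ± 0.186. The highest ratio without MI was 0.998 and the lowest with MI 3.08. With the longest transcript as the length in place of all exons, the means ran from 0.735 to 0.997 without MI and were 3.77 and 4.33 with it. The highest library without MI was then at 1.07 and the lowest with MI at 3.30.

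**Figure D3:**
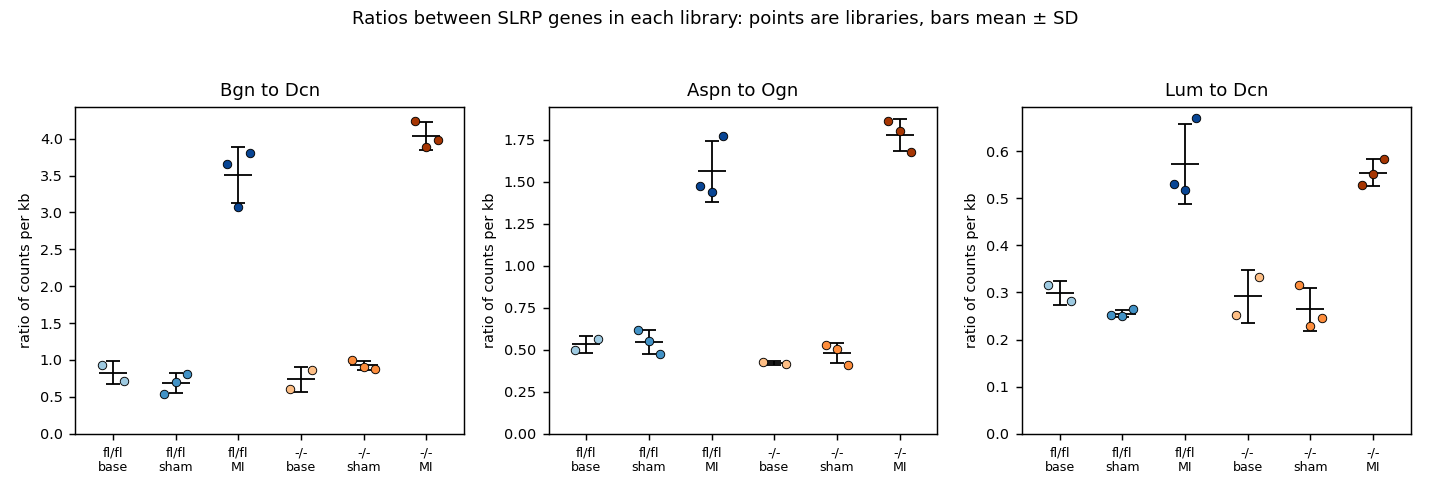
Ratios of counts per kilobase of exon between SLRP genes in each library (points), with the group mean ± SD (bars, n = 2 at baseline, 3 in sham and 3 in MI). The ratio of Bgn to Dcn was at most 0.998 in the 10 libraries without MI and at least 3.08 in the 6 with MI, and Aspn to Ogn and Lum to Dcn were also higher in all 6.

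Among the class II genes, some of whose proteins carry keratan sulfate or tyrosine sulfate, only Lum rose. Lumican limits the growth of collagen fibrils. Lum was at 1568, 1377 and 1076 in PKM2fl/fl sham and 2016, 1995 and 2102 after MI. Those of PKM2-/- were at 1651, 912 and 1621 in sham and 1768, 2015 and 1961 after MI. The groups did not overlap, though in PKM2-/- the gap was narrow, and the log2 differences were 0.62 ± 0.18 (adjusted p = 0.0109) and 0.51 ± 0.18 (adjusted p = 0.0288). The call was lost in PKM2fl/fl without sham replicate 3 (0.47, adjusted p = 0.0618) and in PKM2-/- without sham replicate 2 (0.22, adjusted p = 0.167) or MI replicate 2 (0.47, adjusted p = 0.0810) or 3 (0.49, adjusted p = 0.0716).

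The neighbours Dcn and Lum thus moved in opposite directions. The Lum to Dcn ratio per kilobase was 0.255 ± 0.00807 in PKM2fl/fl sham and 0.572 ± 0.0855 after MI, and 0.264 ± 0.0461 and 0.554 ± 0.0284 in PKM2-/-. Every MI library was above every library without MI. Within groups, after the group means were removed, the 2 genes varied together (r = 0.753 over 16 libraries, which share depth and tissue sampling), while over all 16 libraries r was -0.0544.

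Prolargin, a class II SLRP with a basic end that anchors basement membranes to collagen, was lower after MI than in sham. Prelp was at 1099.8, 1089 and 1021 in PKM2fl/fl sham and 850.2, 921 and 429 after MI. The PKM2-/- values were 1350.4, 985 and 1549 in sham and 584, 795 and 620.3 after MI. MI replicate 3 of PKM2fl/fl stood well below the other 2. The PKM2fl/fl baseline libraries, at 888 and 901, lay within the range of the MI libraries. Those of PKM2-/-, at 948 and 997, lay above it, and the contrast of MI with baseline was not tested. The log2 differences were -0.62 ± 0.23 (adjusted p = 0.0341) and -0.95 ± 0.23 (adjusted p = 0.00244), read with the antisense gene Gm15851 in them. In PKM2fl/fl the fall no longer passed without MI replicate 3 (-0.27, adjusted p = 0.184) or without sham replicate 1 (-0.60, adjusted p = 0.0813), 2 (-0.61, adjusted p = 0.0763) or 3 (-0.65, adjusted p = 0.0573).

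Fibromodulin and osteomodulin, the other class II genes, were scarce, and neither passed the test. Fmod, which guides cross-linking of collagen, was at 163, 104 and 155 in PKM2fl/fl sham and 111, 164 and 61.3 after MI. Those of PKM2-/- were at 86.8, 111 and 76.6 in sham and 54.3, 119 and 63.5 after MI. The groups overlapped in both genotypes, and the 95% intervals of the log2 difference, -1.17 to 0.36 and -1.05 to 0.49, leave room for a 2-fold fall. Omd, best known in bone and tooth, lay between 26.1 and 76.4 over all 16 libraries, with log2 differences of 0.08 ± 0.28 and 0.25 ± 0.28, and its few reads lie within the span of Cenpp, though its exons do not overlap exons of Cenpp.

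Osteoglycin, the class III member, was the only gene that passed in one genotype alone. Ogn was at 2401, 2282 and 2484 in PKM2fl/fl sham and 1863, 2382 and 1985 after MI, which overlap. The knockout libraries were at 2260.3, 1941 and 3062 in sham and 1306, 1701 and 1356 after MI, with no overlap. The log2 difference was -0.21 ± 0.16 (adjusted p = 0.299) in PKM2fl/fl and -0.72 ± 0.16 (adjusted p = 0.00138) in PKM2-/-. The difference between these responses, tested as an interaction, was -0.51 ± 0.23 with adjusted p = 0.580, so a different response was not shown.

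Aspn and Ogn, in the same cluster, also separated. Their ratio per kilobase was 0.547 ± 0.0729 in PKM2fl/fl sham and 1.56 ± 0.183 after MI, and 0.481 ± 0.0615 and 1.78 ± 0.0936 in PKM2-/-. The lowest MI library (1.44) was above the highest of the others (0.617). Reads shared with Cenpp enter both genes.

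Podn values fell with MI, from 3675, 3310.4 and 2978 in sham to 1605, 1805 and 1171 in PKM2fl/fl, and from 2757, 2968 and 2923 to 1449, 1419 and 1421 in PKM2-/-. The groups were far apart, with log2 differences of -1.14 ± 0.13 (adjusted p = 8.13e-06) and -1.01 ± 0.13 (adjusted p = 1.42e-05). Scp2 itself went from 3530 ± 413 to 1574 ± 308 normalized counts in PKM2fl/fl and from 2955 ± 136 to 1452 ± 30.9 in PKM2-/- (SD, n = 3 each). The fall of Podn is therefore given for the reads the 2 genes have in common and not for podocan.

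**Figure D4:**
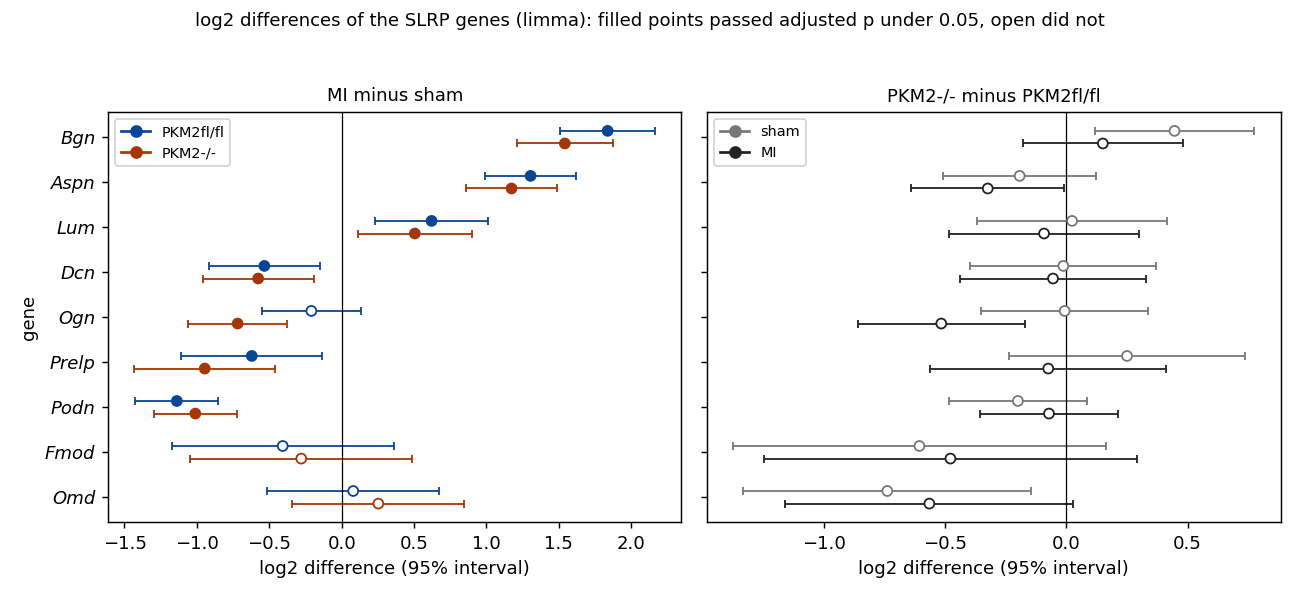
Log2 differences of the 9 SLRP genes with 95% intervals from limma, for MI minus sham in each genotype (left) and for PKM2-/- minus PKM2fl/fl in sham and in MI (right). Filled points passed an adjusted p of 0.05 and open points did not. Bgn, Aspn and Lum were higher after MI and Dcn, Prelp and Podn lower in both genotypes, and all genotype points are open.

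These calls changed with the handling of rRNA and with the scaling of the libraries, and the cause was not tested. Leaving out the 5 rRNA-rich libraries leaves 1 MI library in each genotype, so fewer libraries cannot be told apart from rRNA share there. With the log2 level of the rRNA locus CT010467.1 as a covariate, or with the 5 rRNA-rich libraries left out, 3 of 9 genes passed in PKM2fl/fl (Bgn, Aspn and Podn). The log2 values then were -0.52 and -0.43 for Dcn, 0.54 and 0.59 for Lum and -0.53 and -0.22 for Prelp. In PKM2-/-, leaving those libraries out ended the calls of Dcn (-0.44, adjusted p = 0.171) and Lum (0.53, adjusted p = 0.183). Scaling by total reads put the median of all genes at 0.52 in PKM2-/- and -0.18 in PKM2fl/fl, from 0.01 and -0.0025, and raised the share of calls that were higher from 50.5% to 79.2% in PKM2-/-, while it lowered it from 49.5% to 39.4% in PKM2fl/fl. On that scale Dcn in PKM2-/- was at -0.06 (adjusted p = 0.889), and relative to the shifted median at -0.58. Ogn (-0.21), Prelp (-0.43) and Podn (-0.50) also no longer passed there, and in PKM2fl/fl Dcn (-0.71, adjusted p = 0.0946) and Lum (0.44, adjusted p = 0.286) did not.

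The make-up of the SLRP pool shifted with MI. Per kilobase of exon and without Podn, the order of mean levels over the 16 libraries was Bgn (1132), Dcn (659.5), Ogn (349), Aspn (297), Lum (238), Prelp (134), Fmod (24.1) and Omd (18.8). This order pools groups that differ, and the MI libraries set parts of it: by exon length, Dcn was above Bgn and Ogn above Aspn in all 10 libraries without MI, and the reverse held in all 6 with MI. By the longest transcript, Dcn was not above Bgn in every library without MI. The Bgn to Dcn ratio then reached 1.004 in PKM2fl/fl baseline and 1.07 in PKM2-/- sham. Aspn and Lum change places when the longest transcript is used as the length, and of the neighbours in this order all overlapped in their ranges over libraries except Prelp and Fmod. Bgn was 24.4% ± 2.34 of the 8 genes in PKM2fl/fl at baseline, 23.0% ± 2.47 in sham and 50.7% ± 3.41 after MI, while Dcn was 29.7% ± 2.69, 34.1% ± 3.79 and 14.5% ± 1.09. In PKM2-/- Bgn was 22.6% ± 3.12, 29.2% ± 1.06 and 57.2% ± 2.20, and Dcn 31.0% ± 3.10, 31.4% ± 1.07 and 14.2% ± 0.247. These shares depend on the length used. With the longest transcript, Bgn means were 31.8%, 29.6% and 61.3% in PKM2fl/fl and 29.5%, 36.5% and 66.6% in PKM2-/-. Those of Dcn were 36.1%, 40.8% and 16.4% in PKM2fl/fl and 37.8%, 36.7% and 15.4% in PKM2-/-. By exon length, the mean share of Lum was 7.87% to 8.95% in all 6 groups, and single libraries ran from 7.18% to 9.63%. The sum of the 8 genes per kilobase was 2392 ± 244 in PKM2fl/fl sham and 3860.2 ± 167 after MI, and 2599 ± 588 and 3796 ± 213 in PKM2-/-.

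The comparison of genotypes asked whether loss of PKM2 changed the family, and 0 of the 9 genes passed by limma, edgeR or DESeq2 at baseline, in sham or after MI. Of all genes, 0.00972% passed at baseline, 0.00972% in sham and 0.967% after MI. At an unadjusted p under 0.05 there was 1 gene at baseline (Fmod; 3.64% of all genes), 2 in sham (Bgn and Omd; 9.95%) and 2 after MI (Ogn and Aspn; 17.0%). For the interaction of genotype and MI, 0 of 9 passed by any of the 3 tools, against 0% of all genes by limma, and 1 (Ogn) had an unadjusted p under 0.05, as did 8.28% of all genes. The share of reads on the rRNA locus CT010467.1 also separated the genotypes before MI. At baseline it was 0.256% and 0.494% in PKM2fl/fl and 8.25% and 7.63% in PKM2-/-. In sham it was 0.111% to 1.39% in PKM2fl/fl and 4.14% to 15.0% in PKM2-/-. Genotype and rRNA share cannot be told apart in these contrasts. After MI the ranges overlapped (1.72% to 25.1% and 2.13% to 17.4%).

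After MI, Ogn was lower in all 3 PKM2-/- libraries than in all 3 PKM2fl/fl libraries, by log2 -0.52 ± 0.16 (95% interval -0.86 to -0.17, adjusted p = 0.122). With the 5 rRNA-rich libraries left out, which leaves 1 MI library in each genotype, assumed to vary like the other groups, it was -0.87 (adjusted p = 0.0360). Aspn differed by -0.32 ± 0.15 (adjusted p = 0.281), with overlapping groups. Bgn was 0.45 ± 0.15 higher in PKM2-/- sham (adjusted p = 0.314), also with overlap. For Dcn and Lum after MI the intervals were -0.44 to 0.33 and -0.48 to 0.30, which do not reach a 2-fold difference in either direction. The genotypes did not overlap in 2 of the 9 genes after MI, and the share of all genes is not given here. Among cell type markers, DESeq2 called Myh6 (-0.94), Ryr2 (-0.58), Pln (-0.78), Abcc9 (-0.78) and Mrc1 (0.69) between genotypes after MI, among 1029 of all genes. These were not called by limma or edgeR, and their part in the Ogn values was not tested.

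Fmod at baseline was 40.03 and 39.81 in PKM2fl/fl and 60.6 and 114 in PKM2-/-, a log2 difference of 1.04 ± 0.44 (adjusted p = 1). Myl7, the atrial myosin light chain, was at 10.99 and 19.9 in the PKM2fl/fl baseline libraries and 139 and 51.3 in those of PKM2-/-. Myl7 was thus also higher in PKM2-/- at baseline, but the PKM2-/- library with more Myl7 had less Fmod. In PKM2-/- sham, Myl7 was at 378, 226 and 69.04 and Fmod at 86.8, 111 and 76.6, both overlapping baseline. Over the 16 libraries Fmod varied with Myl7 (r = 0.683; 0.404 within groups) and with Comp, a cartilage and tendon matrix gene (r = 0.695; 0.629 within groups). The part of atrial or valve tissue in the Fmod values was not tested.

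Sham surgery itself was compared with baseline. In PKM2fl/fl 0 of 9 genes passed by limma, against 0.190% of all genes, with 3 (Dcn, Fmod and Omd) at an unadjusted p under 0.05 (8.81% of all genes), 0 by edgeR and 1 by DESeq2, which called 1.60% of all genes. That gene was Fmod, at 40.03 and 39.81 at baseline and 163, 104 and 155 in sham, with a log2 difference of 1.77 ± 0.40 (limma adjusted p = 0.0946, DESeq2 adjusted p = 0.00348). Without PKM2fl/fl MI replicate 3, which enters only the shared spread, limma gave adjusted p = 0.0407. Myl7 was at 401, 90.3 and 405 in the same sham libraries, also above baseline.

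In PKM2-/- 1 of 9 genes passed, against 5.14% of all genes. Bgn was at 2829 and 3115 at baseline and 5484, 3796 and 6119.9 in sham, a 1.69-fold rise (log2 0.76 ± 0.17, adjusted p = 0.0197). The call was lost without either baseline replicate (adjusted p = 0.149 and 0.0838), without sham replicate 1 (0.0710) or 3 (0.0554) and when only these 2 groups were fitted (0.0597). In PKM2fl/fl the same difference was 0.26 ± 0.17 (adjusted p = 0.786), and whether the genotypes differ in it was not tested. Markers of some other cells were also higher in PKM2-/- sham. Of 5 neutrophil markers 5 rose (median log2 difference 3.41), with sums of 974 to 1254 normalized counts in sham, as did 3 of 7 macrophage markers (median 0.93), 1 of 8 resident fibroblast markers (0.39) and 5 of 12 collagens (0.69), against 5.14% of all genes in either direction. In PKM2fl/fl the medians of these lists were 2.82, 0.82, 0.19 and 0.62. Other lists did not rise in PKM2-/- sham. There 0 of 6 myofibroblast, 0 of 5 endothelial and 0 of 7 cardiomyocyte markers passed (medians 0.25, -0.22 and 0.02). Of 6 smooth muscle and pericyte markers, 0 rose and 1 fell (median -0.21). The part of any of these cells in the rise of Bgn was not tested.

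The genes most alike in pattern were ranked by Pearson's r of log2 values over the 16 libraries, a description since the libraries share groups, depth and tissue sampling. For Bgn these were Srm, a spermidine synthase (r = 0.992), Cd68, a macrophage marker (0.989), and Serpinf1 (0.989). For Aspn they were Otulinl (0.969), Pik3ap1 (0.969) and Col14a1, a fibril-associated collagen (0.966). Dcn was most like Itm2b (0.918), Serping1, the C1 inhibitor (0.874), and Gm42560 (0.867), and Lum like Ticam2 (0.956) and Slc2a13 (0.933). For Ogn they were Adgra3 (0.902), Ccpg1os (0.901) and its neighbour Ecm2 (0.897). Prelp was nearest to its antisense partner Gm15851 (0.996), then Colca2 (0.940) and Fbln1, a fibulin of the matrix (0.920), and Podn to Scp2 (0.999), Ccpg1 (0.994) and Gm44503 (0.994). The scarce genes had weaker matches, Fmod with Dkk3 (0.750), Cyp2e1 (0.727) and Mybphl (0.700) and Omd with Ints13 (0.835), Ankrd10 (0.823) and Rnf17 (0.804).

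Other genes of the pathway were described from lists chosen with earlier results of these data known. The counts for MI against sham stand beside 24.8% of all genes higher and 25.3% lower in PKM2fl/fl and 28.7% higher and 28.1% lower in PKM2-/-. Of 9 further SLRP genes 5 passed the filter on low counts. Tsku, tsukushi, rose in both genotypes (log2 2.27 and 2.22), Ecm2, next to Aspn, fell in both (-0.61 and -0.90) and Nyx fell in PKM2fl/fl (-1.29). The list's median was -0.61 in PKM2fl/fl and -0.33 in PKM2-/-.

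The collagens that SLRPs bind all rose, 12 of the 12 tested in both genotypes, with medians of 2.50 and 2.55 beside -0.0025 and 0.01 for all genes. Col1a1 rose by 3.22 and 3.11 and Col3a1 by 2.54 and 2.68, more than Bgn. The ratio of Col1a1 to Dcn, on normalized counts and so only for comparison between groups, went from 0.573 ± 0.224 in PKM2fl/fl sham to 7.38 ± 0.611 after MI, and from 0.625 ± 0.263 to 7.74 ± 1.92 in PKM2-/-.

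Of 24 tested genes that build or sulfate the chains of SLRPs, 18 rose and 3 fell in PKM2fl/fl (median 1.03; 24.8% of all genes rose) and 19 rose and 2 fell in PKM2-/- (median 1.01; 28.7% of all genes rose). Xylt1, which adds the first xylose to the core protein, rose by 1.78 and 1.65, Chsy1, a chondroitin synthase, by 1.36 and 1.47, and Dse, which makes dermatan from chondroitin, by 1.61 and 1.61. B4galt4, which takes part in keratan sulfate, fell by 0.82 and 1.23. Of 13 proteases and their helpers, 9 rose and 0 fell in PKM2fl/fl (median 0.95) and 10 rose and 1 fell in PKM2-/- (median 1.32). Bmp1, which removes the biglycan propeptide, rose 2.82-fold in PKM2fl/fl and by a log2 difference of 1.70 in PKM2-/-, and Mmp14 by log2 differences of 2.85 and 2.92. Adamts4 rose by 4.17 and 3.68.

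Of 16 receptors and growth factors that SLRPs bind, 12 rose and 0 fell in PKM2fl/fl (median 1.21) and 12 rose and 1 fell in PKM2-/- (median 0.83). Tgfb1 rose by 1.45 and 1.31, and Tlr2, a biglycan receptor, by 1.28 and 1.90. Tlr4, the other one, was at 0.15 (adjusted p = 0.526) in PKM2fl/fl and rose by 0.78 in PKM2-/-. Cd44 is counted among the 12 in PKM2fl/fl (3.09), but its values followed the rRNA locus CT010467.1 (r = 0.991 over 16 libraries) and ran from 1795 to 105217, so they are not read as Cd44 RNA. Of 18 other proteoglycans, 12 rose and 3 fell in PKM2fl/fl (median 0.84), among them Vcan, versican (2.20 in both genotypes), and 11 rose and 4 fell in PKM2-/- (median 1.12). Between genotypes, Sdc4, a syndecan, was the only gene of these pathway lists that passed by limma (higher in PKM2-/- after MI, adjusted p = 0.0269) or by edgeR (adjusted p = 0.0286). DESeq2 called 1 gene of these lists at baseline (Cd44), 3 in sham (Cd44, Adamts4 and Tlr4) and 7 after MI (Sdc4, Tsku, Bmp1, Tgfb2, Lrp1, Col5a3 and Prg4), among 11, 266 and 1029 of all genes. Cd44 averaged 64937 normalized counts in PKM2-/- and 3222 in PKM2fl/fl at baseline, without overlap (limma log2 difference 4.41, adjusted p = 0.684; DESeq2 adjusted p = 0.00989), with the rRNA locus as above.

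Cell type markers moved with MI beside the SLRPs, and their part in the SLRP values was not tested. Of all genes 50.1% passed in PKM2fl/fl and 56.8% in PKM2-/-, and the shares of several short lists below lie near these. Of 8 resident fibroblast markers, 4 rose and 2 fell in each genotype (medians 0.38 and 0.47), with sums of 24248 to 26264 normalized counts in PKM2fl/fl sham and 19039 to 23174 after MI. Pdgfra, the defining receptor, rose by 0.70 and 0.84, and Gsn fell by 1.53 and 1.93. Gsn weighs heavily in these sums, with PKM2fl/fl means of 17564 in sham and 6384 after MI, while Col15a1 went from 1730 to 7656. The sums therefore do not show that the list as a whole fell. Dpt, dermatopontin, which binds decorin, was at -0.33 and -0.35 and did not pass. All 6 tested myofibroblast markers rose, with Postn at 3.82 and 3.59, and sums went from 4731 to 7867 in PKM2fl/fl sham to 60094 to 90410.0 after MI. In PKM2-/- they went from 5063 to 8192 to 54932 to 65600.

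All 7 macrophage markers rose in both genotypes (medians 1.71 and 1.75), and 6 of 7 cardiomyocyte markers fell in PKM2fl/fl and 7 of 7 in PKM2-/- (medians -1.74 and -2.19). Of the vessel lists, 2 of 5 endothelial markers rose in PKM2fl/fl, and 2 rose and 1 fell in PKM2-/-. Of 6 smooth muscle and pericyte markers, 1 rose and 3 fell in PKM2fl/fl and 5 fell in PKM2-/-. Of 5 neutrophil markers 2 rose in each genotype, and of 5 epicardial and mesothelial markers 0 passed in PKM2fl/fl (0 at an unadjusted p under 0.05) and 4 rose in PKM2-/-. For the interaction of genotype and MI, 0 of these 5 epicardial and mesothelial markers passed (lowest limma adjusted p = 0.575), so a different response was not shown. Of 6 valve, tendon and cartilage markers 2 rose and 1 fell in PKM2fl/fl and 3 rose in PKM2-/-, of 3 atrial and 3 erythroid markers 0 passed by limma in either (at an unadjusted p under 0.05, 0 atrial in both, and 0 and 1 erythroid), and the 4 adipocyte markers were all below the filter.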

How the data were processed

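RNA was extracted from left ventricle, depleted of rRNA and sequenced. Per the labels and methods, the authors' pipeline ran from PRINSEQ trimming and HISAT2 alignment (mm10) to featureCounts and DESeq2. Versions, strand and overlap settings and gene models are not given in the sources used here. The deposited values are a normalized signal, counts divided by size factors, from which whole reads were recovered for 100% of values (within 0.01 of a whole read). The deposited columns of the authors' own comparison (mean signal, log2 fold change, its standard error and test statistic, which are scores, and p-values) were not used.

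All 16 libraries were fitted with limma 3.58.1 on log2(value + 1) as 6 groups, over 20576 genes with a mean of at least 10. The labels name 1 heart per library. No 2 replicates agreed within sampling noise. The script was tested on simulated data. Alternatives used edgeR 4.0.16 and DESeq2 1.42.0 on recovered reads. The members and lists were chosen with earlier results of these data known. All 9 members were named, and 3 nearest genes were ranked for each, of which 1 gene is not reported here. Motif windows and positions came from RefSeq GRCm38.p6 and exon lengths from GENCODE M39 on GRCm39. Intervals are 95%.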

Additional observations from a re-analysis of the deposited data

Results flagged for a closer look

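The Omd libraries of the genotypes did not overlap at baseline or after MI, in opposite directions. Groups did not overlap in 3 of the 9 genes at baseline and 2 of the 9 after MI, with 2 and 3 libraries per group. The share of all genes without overlap is not given here, so this is not read as a difference between genotypes. At baseline both PKM2-/- libraries (46.6 and 40.3 normalized counts) were above both PKM2fl/fl libraries (33.8 and 29.9), a log2 difference of 0.44. After MI all 3 PKM2-/- libraries (47.0, 38.1 and 36.1) were below all 3 PKM2fl/fl libraries (57.2, 52.5 and 71.3), a log2 difference of -0.56. Neither difference passed the adjusted threshold (limma adjusted p = 1 and 0.320), and the difference between them was not tested. The reads behind these values were 22 to 78 per library, on a gene that lies within Cenpp on the opposite strand. In sham the groups overlapped, with a log2 difference of -0.74 (PKM2-/- minus PKM2fl/fl, limma adjusted p = 0.375).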

How the results depend on the processing

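Of the 9 SLRP genes, the number called for MI against sham in PKM2fl/fl was 6 and became 3 at 2-fold or more, 3 with the rRNA covariate and 3 with the rRNA-rich libraries left out (both rRNA settings were added after the data were seen). In PKM2-/- it was 7 and became 3 with scaling by total reads and 3 at 2-fold or more. For sham against baseline, PKM2fl/fl went from 0 to 1 with DESeq2, and PKM2-/- from 1 to 0 with scaling by total reads, with only the groups compared, at 2-fold or more and with the rRNA-rich libraries left out. The MI genotype comparison went from 0 to 1 (Ogn, lower) with the rRNA-rich libraries left out. Apart from fewer libraries or a stricter rule, the cause was not tested. Leaving out each library in turn gave 4 to 6 and 6 to 7 genes for MI against sham, 0 to 1 for both sham comparisons, and 0 for the genotype comparisons and the interaction. No called gene changed direction. Of 1872 single-gene values under the alternatives, 78 changed sign without passing in either setting, 61 of them in genotype or interaction comparisons.

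No sign was seen that replicate numbers pair the mice. Same-numbered libraries of different groups had a median correlation of -0.0266 (1 of 36 above 0.1), and other pairs 0.013 (7 of 70). These are deviations from means of 2 or 3 libraries, so the check cannot exclude pairing. With the replicate block the 9 genes gave 6 and 7 calls for MI, 0 and 1 for sham and 0 elsewhere, as without it. Over all genes, calls for the MI genotype comparison were 199, against 75 with the block, 123 with scaling by total reads, 6 with only the groups compared, 1029 with DESeq2 and 1018 without the rRNA-rich libraries. Leaving out 1 library gave 11 to 2271 there and 0 to 484 for the interaction, both highest without PKM2fl/fl MI replicate 3, 0 to 40 at baseline, 0 to 89 for the sham genotype comparison, 7 to 282 for sham against baseline in PKM2fl/fl and 317 to 1426 in PKM2-/-. Calls for the interaction were 0, against 54 with scaling by total reads, 60 with DESeq2 and 100 without the rRNA-rich libraries. For sham they were 2, against 113, 266 and 244 in the same settings (9 with only the groups compared, 0 with no filter, the block or the covariate). At baseline they were 2, against 44, 11 and 12 (48 with only the groups compared, 9 with pseudocount 0.1, 1 with edgeR or the block, 0 with the covariate). For sham in PKM2fl/fl they were 39, against 96, 349 and 6 (1 with only the groups compared, 24 with the block), and in PKM2-/- 1058, against 587 with scaling by total reads. For MI in PKM2fl/fl they were 10299, against 6007 with scaling by total reads, 6014 with the covariate and 6436 without the rRNA-rich libraries.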
